A study of Mus musculus with 16 samples.

Results

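The 10 genes described here are Pecam1, Cdh5, Kdr, Flt1, Tek, Tie1, Vwf, Eng, Emcn and Esam, which mark tumor vessel endothelium. They were found by their symbols in a table of 45777 genes measured by RNA-seq in whole B16F10 tumors, and all 10 were among the 16209 genes with at least 1 count in every tumor, which were the genes tested. B16F10 is a melanoma cell line of C57BL/6 origin, so the tumor cells came from a single line and the vessels from the host mouse. The study asked how obesity alters the response of tumors to chemotherapy. Tumors grew under the skin of lean C57BL/6J mice or of C57BL/6J-ob/ob mice, which lack leptin and become obese, injected at 6 weeks of age. They were taken pre-therapy (the groups B6_ctrl and ob_ob_ctrl) or after etoposide (ETS; B6_ETS and ob_ob_ETS), a topoisomerase II inhibitor given as 5 injections of 20 mg per kg. Each group held 4 tumors, 16 libraries in all, and they are called lean or obese tumors after their host. The labels do not say that each library came from a different mouse, so p-values measure the spread between these samples. Obesity here came from loss of leptin itself, and leptin loss and body weight cannot be told apart. The study describes the control tumors as pre-chemotherapy, and no group is labeled as vehicle-treated. Changes after ETS therefore cannot be told apart from those of further tumor growth.

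Endothelial cells line blood vessels. Cdh5 (VE-cadherin), Pecam1 (CD31) and Esam are adhesion molecules of the junctions between these cells, and Emcn is a sialomucin of their surface. Kdr (VEGFR2) is the main signaling receptor for VEGF-A, whereas Flt1 (VEGFR1) binds VEGF-A and PlGF and acts largely as a trap. Tek (Tie2) is the receptor of the angiopoietins, Tie1 is its partner receptor, Eng (endoglin) is a co-receptor for BMP9 and TGF-beta that other stromal cells and macrophages carry too, and Vwf is the clotting factor stored in endothelial cells and platelets. In tumors, VEGF-A drives the growth of such vessels, Angpt1 keeps vessels quiet and Angpt2 loosens them for remodeling.

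All 10 genes had counts in all 16 tumors, as every tested gene did, and a level in whole tumors does not show which cells the RNA came from. Total counts ran from 47199949 to 61655287 per tumor. Tek had the fewest counts, from 11 to 289 per tumor, and the other 9 had 242 to 23809, which makes Tek the least precise of the 10. Levels of different genes were set side by side as TPM (a scale that allows for gene length and library size). In lean tumors pre-therapy, Eng led by far at 186 ± 30.8 TPM (SD, n = 4), followed by Pecam1 at 29.4 ± 3.34. Next came Emcn at 17.6 ± 4.35, Cdh5 at 14.4 ± 3.50, Esam at 11.6 ± 1.91 and Vwf at 10.3 ± 3.38 TPM, neighbors that differed by less than the larger of their SDs. Flt1 (9.05 ± 3.26 TPM), Kdr (8.98 ± 2.38 TPM) and Tie1 (6.83 ± 1.84 TPM) were lower and likewise not separated, and Tek was last at 1.37 ± 0.750 TPM. Eng, Pecam1 and Tek held the first, second and last rank in all 4 groups. The place of Vwf differed between groups, from rank 6 in lean tumors pre-therapy to rank 3 in obese tumors pre-therapy, where it stood at 12.2 ± 2.41 TPM beside Pecam1 at 12.4 ± 4.56.

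In the mouse genome (GRCm38.p6), Kdr spans chr5:75932827-75979072 and Flt1 chr5:147561604-147726438, both on the minus strand, and Tie1 spans chr4:118471191-118489849 on the minus strand. On the plus strand lie Tek (chr4:94739086-94874976), Eng (chr2:32646595-32682669), Emcn (chr3:137341062-137431069), Vwf (chr6:125552948-125686679), Cdh5 (chr8:104101613-104144504) and Esam (chr9:37528089-37538319), while Pecam1 (chr11:106654213-106715281) is on the minus strand. Cdh5 overlaps an antisense gene, Gm29682, and Eng overlaps Fpgs on the other strand at its edge. Whether the counting used strand is not stated, so reads from those overlaps could be shared.

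These genes are all used as endothelial markers, although other cells make some of them too. The sequences upstream of their starts are shown for members that the results turn on. RefSeq promoters on GRCm38.p6 were matched for 6 of the 10 (Eng, Emcn, Tek, Tie1, Kdr and Flt1). Each line gives up to 250 bases before the start that the promoter table uses, 5′ to 3′ on the gene's strand, without bases that GENCODE M21 annotates as exon. That start lies inside the RefSeq span given above by 617 bases in Kdr, 427 in Flt1, 203 in Tek and 16 in Emcn, so for Kdr and Flt1 the window is within the span, and for Tek most of it is. In Eng it is the first base of the span. Capitals mark GGAA, or TTCC on the opposite strand, the core bound by Ets-family transcription factors, which share only a name with the drug. The windows are chr5:75978459-75978705 (minus) for Kdr, chr5:147726012-147726261 (minus) for Flt1, chr4:94739039-94739288 (plus) for Tek, chr2:32646345-32646594 (plus) for Eng and chr3:137340828-137341066 (plus) for Emcn.
Kdr: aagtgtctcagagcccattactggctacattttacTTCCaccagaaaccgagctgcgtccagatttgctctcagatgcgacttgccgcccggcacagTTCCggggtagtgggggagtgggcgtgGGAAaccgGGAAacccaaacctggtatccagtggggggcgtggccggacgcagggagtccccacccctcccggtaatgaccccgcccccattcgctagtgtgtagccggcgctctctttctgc
Flt1: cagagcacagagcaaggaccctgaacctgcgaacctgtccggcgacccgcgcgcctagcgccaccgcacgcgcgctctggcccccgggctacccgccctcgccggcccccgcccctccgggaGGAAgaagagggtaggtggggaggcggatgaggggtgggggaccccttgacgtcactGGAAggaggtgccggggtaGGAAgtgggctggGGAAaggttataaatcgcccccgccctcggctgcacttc
Tek: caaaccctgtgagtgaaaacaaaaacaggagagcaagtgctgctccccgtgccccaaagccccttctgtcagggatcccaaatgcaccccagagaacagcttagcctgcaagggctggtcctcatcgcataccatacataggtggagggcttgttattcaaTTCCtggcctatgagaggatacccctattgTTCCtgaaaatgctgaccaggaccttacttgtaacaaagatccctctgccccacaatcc
Eng: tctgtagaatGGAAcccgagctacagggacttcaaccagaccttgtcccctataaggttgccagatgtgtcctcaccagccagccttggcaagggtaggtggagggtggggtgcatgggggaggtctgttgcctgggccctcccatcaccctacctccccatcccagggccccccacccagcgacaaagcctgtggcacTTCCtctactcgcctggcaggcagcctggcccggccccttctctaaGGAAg
Emcn: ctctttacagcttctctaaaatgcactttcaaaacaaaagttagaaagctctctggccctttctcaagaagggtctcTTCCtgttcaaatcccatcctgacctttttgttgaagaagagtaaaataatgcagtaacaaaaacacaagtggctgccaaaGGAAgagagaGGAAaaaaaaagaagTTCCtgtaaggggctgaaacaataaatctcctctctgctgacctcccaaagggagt
The whole 250-base windows hold 4 cores in Kdr, Flt1 and Emcn, 3 in Eng, 2 in Tek and 7 in Tie1, against a median of 3 over 32851 promoters. In Tie1, 212 of the 250 bases are annotated as exon, and only 2 of its 7 cores lie outside them. The core is common, with 93.4% of all promoters holding at least 1. The longer ACAGGAA, which contains the core, was found in Emcn and Tie1 and in 7.20% of all promoters. In Tie1 it lies in the exon part. GGGCGG, the letters bound by SP1, was in Kdr and Flt1 and in 32.7% of all, and TATAAA was in Flt1 alone and in 12.4% of all. AGATAA (the GATA letters; 9.99% of all) and ACGTG (the hypoxia letters; 16.6% of all) were in none of the 6 windows, all motifs having been searched on both strands.

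After ETS, the vessel genes rose in obese tumors and, for the most part, did not pass the test in lean tumors. In obese tumors, 9 of the 10 rose (all but Tek), with a median log2 fold change of 1.12 over the 10 against 0.01 over all tested genes. In lean tumors, Kdr fell and the other 9 did not pass the test, with a median of −0.27 against −0.01. A gene was called by edgeR's quasi-likelihood test at an adjusted p under 0.05 (Benjamini-Hochberg over all 16209 tested genes). By that rule 21.2% of all tested genes were called higher in obese tumors and 22.8% were called lower in lean tumors. The obese count of 9 in 10 was above the background under every setting tried. The lean count of 1 in 10 was below it, but depended on the test, with 3 of 10 by edgeR's exact test on counts plus 1 (22.9% of all tested genes), 3 of 10 by DESeq2 (23.4%) and 4 of 10 by limma-voom (27.8%). The mean log2 CPM of the 10 genes, a description with no test, was 4.34 to 4.66 in lean tumors pre-therapy and 3.87 to 4.27 after ETS. In obese tumors it was 3.50 to 4.20 pre-therapy and 4.27 to 5.32 after ETS, so that neither pair of groups overlapped. The lean gap was narrow and rested on Tek, the least precise member. Against the other 9, Tek stood 1.51 lower in lean tumors after ETS than pre-therapy. Without Tek, the lean groups overlap, so the gap does not show a fall of the whole set. In bulk tumors, fewer endothelial cells and less RNA per cell cannot be told apart. Values below are CPM (counts per 1000000 counts of the library, after TMM scaling between libraries) unless said otherwise, and tumors are numbered as in the labels.

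**Figure D1:**
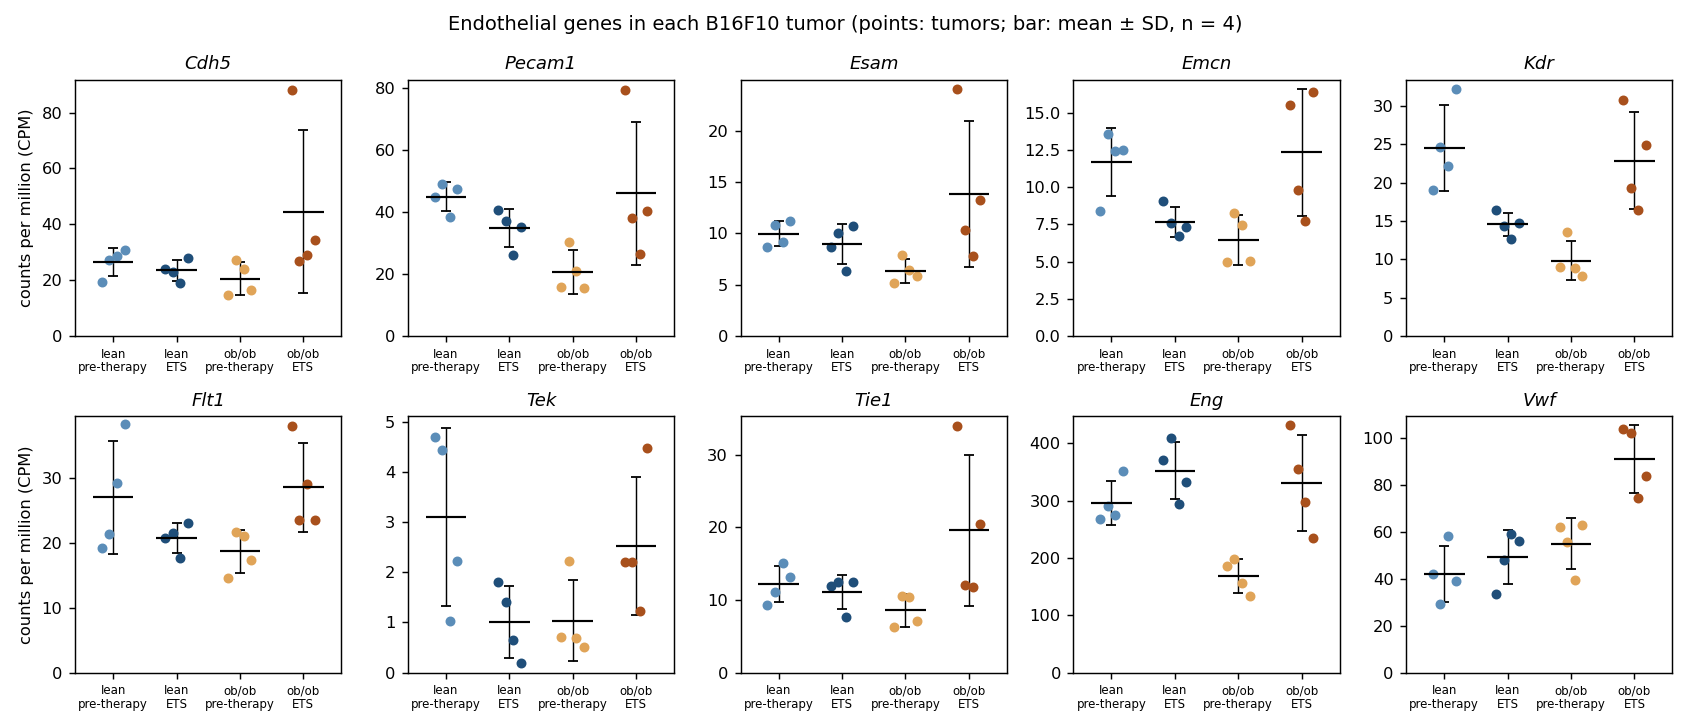
CPM of each of the 10 vessel genes (y axes, linear from 0) in the 16 tumors, grouped on the x axis by host and treatment; points are tumors in label order, and bars give the mean ± SD (n = 4). In most panels the obese tumors pre-therapy sit lowest and obese ETS tumor 1 sits highest, as for Cdh5 at 88.1 CPM, while Vwf and Eng do not fall in lean tumors.

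Kdr was the member that changed in either host. It stood at 19.1, 24.7, 22.1 and 32.2 CPM in lean tumors pre-therapy and at 16.4, 14.4, 12.7 and 14.7 CPM after ETS, and the groups did not overlap. In obese tumors it was 9.01, 13.6, 8.91 and 7.82 CPM pre-therapy and 30.8, 19.2, 16.5 and 24.9 CPM after ETS, again without overlap. Kdr therefore fell 1.68-fold in lean tumors (log2 fold change −0.75 ± 0.21 SE, adjusted p = 0.0102, edgeR) and rose 2.33-fold in obese tumors (1.22 ± 0.21 SE, adjusted p = 0.000601). It was the only one of the 10 whose lean groups were fully apart (20.3% of all tested genes were apart in that direction), whereas 5 of 10 were apart in the obese comparison, all higher (16.4% of all tested genes). The other 4 of those 5 were Flt1, Tie1, Vwf and Eng.

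Flt1, the other VEGF receptor, was 19.1, 21.4, 29.2 and 38.3 CPM in lean tumors pre-therapy and 20.7, 21.5, 17.6 and 23.1 CPM after ETS. These groups overlapped, with a log2 fold change of −0.38 (95% CI −0.83 to 0.07, adjusted p = 0.153). In obese tumors Flt1 rose from 18.7 ± 3.34 to 28.5 ± 6.83 CPM (SD, n = 4), a log2 fold change of 0.61 ± 0.21 SE (adjusted p = 0.0311), the smallest of the 9 rises. That call was lost when any of 4 obese tumors was left out (ob_ob_ctrl 1 or 4, ob_ob_ETS 1 or 3; adjusted p up to 0.105), and in 4 of 10 other settings (no filter, limma-voom and both TPM scales; adjusted p up to 0.119).

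The junction genes rose by like amounts in obese tumors. Cdh5 stood at 14.7, 27.3, 23.8 and 16.3 CPM pre-therapy and at 88.1, 26.9, 28.9 and 34.2 CPM after ETS, so that tumor 1 held far more than the rest and the lowest ETS tumor lay within the pre-therapy range. Its log2 fold change was 1.12 ± 0.33 SE (adjusted p = 0.0141), and without ETS tumor 1 it was 0.56 (adjusted p = 0.0541), so the call rests on that tumor. It was also lost when only the obese tumors were fitted (adjusted p = 0.0532). Pecam1 was 15.7, 30.4, 21.0 and 15.4 CPM pre-therapy and 79.3, 38.1, 26.3 and 40.3 CPM after ETS. ETS tumor 3 lay below pre-therapy tumor 2, and the rise was 2.23-fold (1.16 ± 0.28 SE, adjusted p = 0.00520; 0.78 and still called without ETS tumor 1). Esam rose 2.19-fold (1.13 ± 0.28 SE, adjusted p = 0.00579), from 5.19 to 7.90 CPM across the pre-therapy tumors to 7.74 to 24.0 CPM after ETS. Emcn rose 1.92-fold (0.94 ± 0.25 SE, adjusted p = 0.00768), from 5.0 to 8.26 CPM to 7.71 to 16.4 CPM. In both, only the lowest ETS tumor reached into the pre-therapy range.

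The same 4 genes did not pass the test in lean tumors. Cdh5 went from 26.5 ± 4.95 to 23.4 ± 3.69 CPM (log2 fold change −0.18, 95% CI −0.86 to 0.51) and Esam from 9.96 ± 1.23 to 8.93 ± 1.96 CPM (−0.16, 95% CI −0.75 to 0.44). Pecam1 went from 44.8 ± 4.69 to 34.7 ± 6.15 CPM (−0.37, 95% CI −0.97 to 0.23), and its ETS tumor 1, at 40.6 CPM, lay above pre-therapy tumor 3, at 38.3 CPM. Emcn was nearest to a call. It stood at 8.39, 13.6, 12.4 and 12.5 CPM pre-therapy and at 9.11, 7.57, 6.73 and 7.35 CPM after ETS, apart from each other but for ETS tumor 1. Its log2 fold change was −0.61 ± 0.25 SE (adjusted p = 0.0553), and it passed when any of 5 tumors was left out (lowest adjusted p = 0.0262) and in 6 of 10 other settings, among them the exact test, DESeq2 and limma-voom (lowest adjusted p = 0.00406).

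Among the Tie receptors, Tie1 was 6.22, 10.6, 10.4 and 7.05 CPM in obese tumors pre-therapy and 33.9, 12.1, 11.8 and 20.4 CPM after ETS. All ETS tumors were higher, and the rise was 2.28-fold (1.19 ± 0.31 SE, adjusted p = 0.00716). In lean tumors it was 12.2 ± 2.5 CPM pre-therapy and 11.1 ± 2.33 CPM after ETS (log2 fold change −0.14, 95% CI −0.78 to 0.51). Tek, the angiopoietin receptor, was the scarcest member and the most variable. It was 4.70, 4.44, 1.02 and 2.22 CPM in lean tumors pre-therapy and 1.80, 1.40, 0.644 and 0.193 CPM after ETS, with lean pre-therapy tumor 3 inside the ETS range. In obese tumors it was 0.703, 2.23, 0.687 and 0.512 CPM pre-therapy and 2.21, 2.2, 1.23 and 4.47 CPM after ETS, with pre-therapy tumor 2 inside the ETS range. Neither change passed the test (lean −1.62 ± 0.65 SE, adjusted p = 0.0543; obese 1.29 ± 0.65 SE, adjusted p = 0.124), although the lean change passed without any of 4 tumors and the obese change without pre-therapy tumor 2 (adjusted p = 0.0319). The lean fall of Tek also passed in 6 of 10 other settings, namely the exact test, DESeq2, limma-voom, both TPM scales and the replicate block (adjusted p from 0.00853), and the obese change in none of them (adjusted p from 0.0559).

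Eng and Vwf were the members whose lean means were higher after ETS, and neither passed the test there. Eng was 268, 290.2, 275 and 352 CPM in lean tumors pre-therapy and 371, 409, 295 and 332 CPM after ETS, overlapping groups with a log2 fold change of 0.25 (95% CI −0.12 to 0.61). In obese tumors it rose from 185, 198, 156 and 134 CPM to 432, 355, 298 and 235 CPM. Every obese ETS tumor was above every pre-therapy one (0.97 ± 0.17 SE, adjusted p = 0.000667). Vwf was 42.1, 29.5, 58.2 and 38.9 CPM in lean tumors pre-therapy and 33.8, 47.9, 59.3 and 56.3 CPM after ETS (log2 fold change 0.23, 95% CI −0.23 to 0.68). In obese tumors Vwf rose from 62, 55.9, 39.4 and 63.1 CPM to 104, 102, 74.5 and 83.8 CPM, without overlap (0.73 ± 0.21 SE, adjusted p = 0.0141). On TPM, the lean changes of Eng and Vwf took the opposite sign (−0.13 for either gene with 1 TPM added). That scale moved all genes: the median of all tested genes was −0.28 in lean tumors, 15.7% of called genes were higher there against 48.0% with TMM scaling, and the members' median relative to it was −0.29 against −0.26 with TMM scaling.

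**Figure D2:**
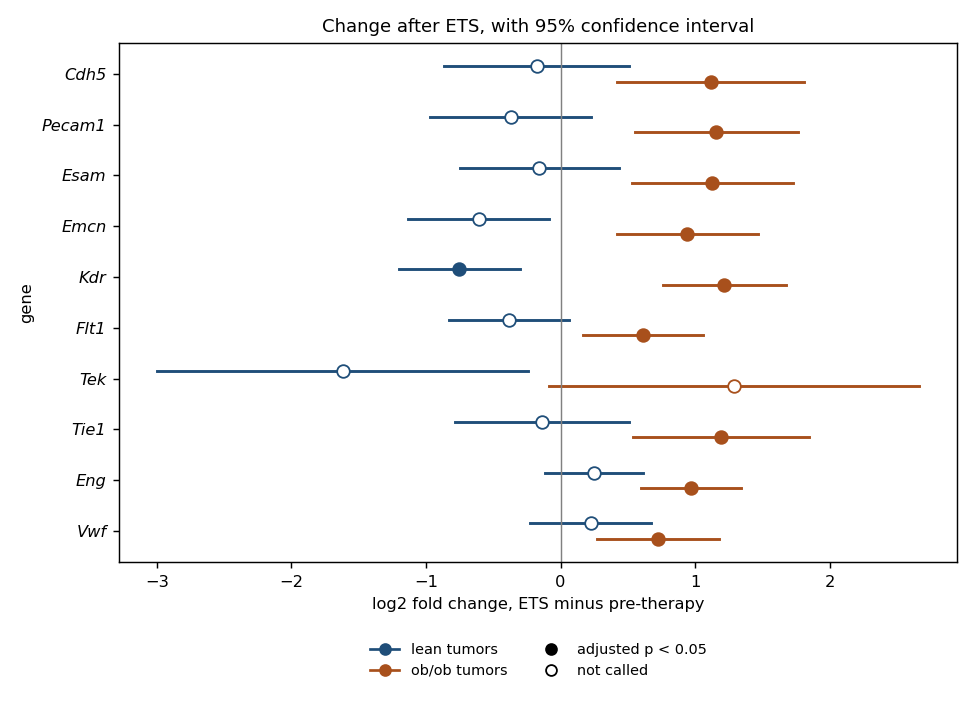
Log2 fold change after ETS (x axis) with its 95% confidence interval for each vessel gene (y axis), in lean (blue) and obese ob/ob (brown) tumors; filled points passed an adjusted p of 0.05. All 10 obese estimates are above 0 and 9 are filled, while among the lean estimates only Kdr, at −0.75, is filled.

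The change after ETS differed between the hosts in 7 of the 10 genes. This was tested as the difference of the log2 fold changes, lean minus obese, by which 10.1% of all tested genes were called lower. It was −1.97 ± 0.30 SE for Kdr (adjusted p = 0.000471), −1.55 ± 0.35 SE for Emcn (adjusted p = 0.00667) and −1.53 ± 0.40 SE for Pecam1 (adjusted p = 0.0162), and these 3 calls held when any of the 16 tumors was left out. Flt1 (−0.99, adjusted p = 0.0328), Esam (−1.29, adjusted p = 0.0373), Tek (−2.91, adjusted p = 0.0408) and Tie1 (−1.33, adjusted p = 0.0472) passed as well. Those calls were near the limit and were lost in 7, 7, 10 and 12 of the 16 leave-outs. Eng (−0.72, 95% CI −1.24 to −0.20, adjusted p = 0.0549), Cdh5 (−1.29, 95% CI −2.27 to −0.32, adjusted p = 0.0673) and Vwf (−0.50, 95% CI −1.14 to 0.14, adjusted p = 0.281) did not pass. Of 8 other settings, Eng passed in 6 (adjusted p from 0.00494) and Cdh5 in 4 (adjusted p from 0.0197), both with DESeq2, limma-voom and either TPM scale, and Vwf in none. Without a filter on low counts the count fell to 5 (6.44% of all tested genes called lower), as Tek (adjusted p = 0.0549) and Tie1 (adjusted p = 0.0574) were lost. With the replicate block the count was again 7, with Eng (adjusted p = 0.0335) in place of Tie1 (adjusted p = 0.0751). The count of 7 ranged from 3 (without B6_ctrl 4) to 9 (without ob_ob_ctrl 2).

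Obese ETS tumor 1 stood apart in the vessel genes, with the highest value of its group in 8 of the 10. Left out, it brought the median obese change of the 10 from 1.12 to 0.79, with 7 of 10 called (Cdh5 and Flt1 were lost), and the median difference between hosts from −1.31 to −0.94, with 5 of 10 called. Its total count was 60741964, and its summed macrophage (699 CPM), fibroblast (1830.0 CPM) and platelet (35.0 CPM) markers were the second highest of its group, while its summed melanocyte markers (26648 CPM) were the highest. The part of these in its values was not tested.

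Before any therapy, obese tumors held less of 4 of the 10 vessel genes than lean tumors, and none was called higher, against 12.9% of all tested genes called lower. Kdr was 24.5 ± 5.6 CPM in lean and 9.83 ± 2.56 CPM in obese tumors (SD, n = 4), 2.49-fold lower (log2 fold change −1.32 ± 0.21 SE, adjusted p = 0.000418). Pecam1 was 44.8 ± 4.69 against 20.6 ± 7.01 CPM (−1.12 ± 0.28 SE, adjusted p = 0.00884). Eng, at 296 ± 38.1 against 168 ± 29.0 CPM (−0.81 ± 0.17 SE, adjusted p = 0.00293), and Emcn, at 11.7 ± 2.29 against 6.44 ± 1.67 CPM (−0.87 ± 0.25 SE, adjusted p = 0.0172), completed the 4. In these genes and in Esam every obese tumor was below every lean tumor, 5 of 10 against 14.4% of all tested genes. The Emcn call was lost without B6_ctrl 2, ob_ob_ctrl 1 or ob_ob_ctrl 4 (adjusted p up to 0.0601). Cdh5 (−0.37, 95% CI −1.05 to 0.32) and Tie1 (−0.51, 95% CI −1.16 to 0.14) did not pass, nor did Flt1 (−0.53), Tek (−1.59) and Esam (−0.65), whose adjusted p lay between 0.0755 and 0.0992. Of 10 other settings, Esam passed in 5, Tek in 3 and Flt1 in 2. Vwf alone had a higher mean in obese tumors, 55.1 ± 11 against 42.2 ± 12 CPM (0.39, 95% CI −0.07 to 0.84).

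After ETS, 9 of the 10 genes had estimates above 0 for obese against lean tumors, but only Vwf was called. Vwf was 49.3 ± 11.4 CPM in lean and 91.2 ± 14.4 CPM in obese tumors (1.85-fold, log2 fold change 0.89 ± 0.21 SE, adjusted p = 0.0313), where 3.28% of all tested genes were called higher. The call was lost in 6 of the 16 leave-outs, namely each of the 4 lean ETS tumors and obese ETS tumors 1 and 4 (adjusted p up to 0.0681). Kdr (0.65), Flt1 (0.46) and Vwf were above every lean ETS tumor in every obese ETS tumor, 3 of 10 against 6.39% of all tested genes, without a call for Kdr (adjusted p = 0.0762) or Flt1 (adjusted p = 0.187). The estimates for Cdh5 (0.93), Tie1 (0.82), Emcn (0.69), Esam (0.63), Pecam1 (0.41) and Tek (1.33) had adjusted p from 0.0958 to 0.388. Eng was near 0 (−0.09, 95% CI −0.46 to 0.27). The comparisons between hosts use the same tumors as those within hosts, so the 4 sets of values are not independent.

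**Figure D3:**
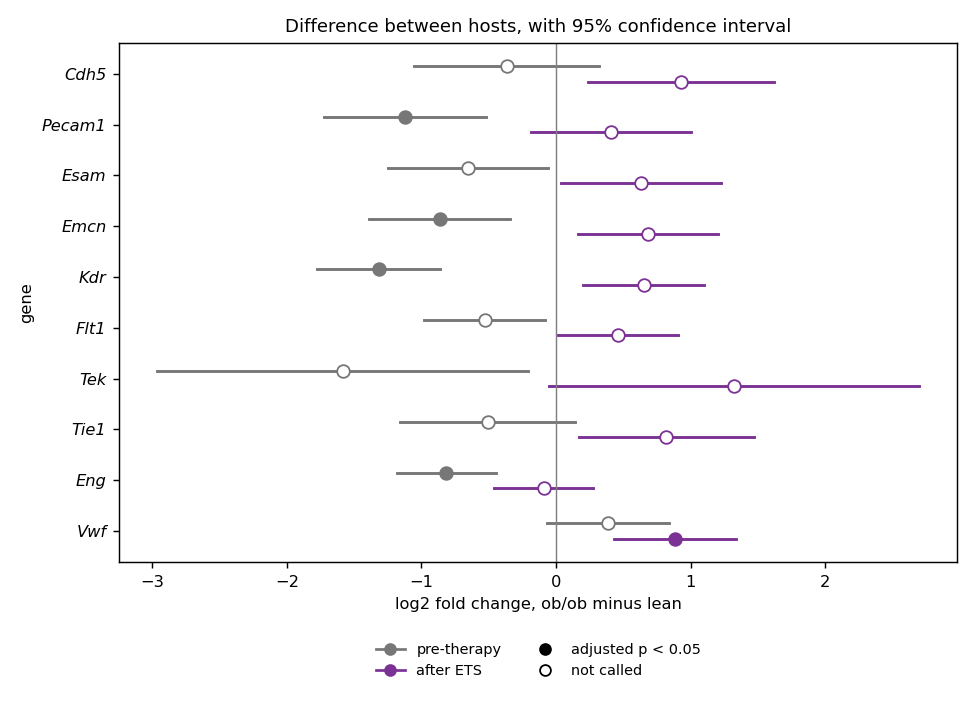
Log2 fold change between obese ob/ob and lean tumors (x axis) with its 95% confidence interval for each vessel gene (y axis), pre-therapy (grey) and after ETS (purple); filled points passed an adjusted p of 0.05. Pre-therapy Kdr, Pecam1, Emcn and Eng are filled and below 0, and after ETS only Vwf, at 0.89, is filled.

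Because Flt1 competes with Kdr for VEGF-A, the ratio of the pair was compared in each tumor by an exact two-sided permutation test, as 1 of 4 ratios in 4 comparisons (16 tests, adjusted together). The log2 ratio of Flt1 to Kdr was 0.11 ± 0.27 in lean and 0.94 ± 0.30 in obese tumors pre-therapy (SD, n = 4), a difference of 0.83 (exact p = 0.0286, the smallest that 4 against 4 allows; adjusted p = 0.152). After ETS it was 0.51 ± 0.14 in lean and 0.33 ± 0.37 in obese tumors. The ratios of Tek to Tie1 and of Vwf to Cdh5 had exact p between 0.143 and 0.686 in the 4 comparisons. None of the 16 passed the adjustment.

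Compared with the mean of the other 9 members in the same tumor, Tek was 0.91 and Kdr 0.64 lower in obese than in lean tumors pre-therapy on the log2 CPM scale, and Vwf was 1.27 higher. In lean tumors after ETS, Eng stood 0.69 and Vwf 0.68 higher against the other members than pre-therapy, with differences of −0.39 for Kdr and −1.51 for Tek. In obese tumors these differences ran from −0.44 (Flt1) to 0.41 (Tek), with Kdr at 0.24 and Vwf at −0.28. Within groups, Pecam1 followed the other 9 most closely (Pearson r = 0.94 over the 16 tumors' deviations from their group means), followed by Kdr (0.89), Esam (0.87), Tie1 (0.81), Cdh5 (0.80) and Emcn (0.79). Eng (0.55), Flt1 (0.48), Tek (0.15) and Vwf (−0.21) followed them less. These are descriptions, since the tumors share their scaling.

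By the same measure, the 10 genes outside the list most like the members' mean were Myct1 (r = 0.95), Gimap4 (0.92), Gimap6 (0.90), Pde2a (0.89), Mmrn2 (0.89), S1pr1 (0.89), 4930523C07Rik (0.88), Prkch (0.87), Ctla2b (0.87) and Cd93 (0.87), among 13305 genes of at least 1 CPM. Without obese ETS tumor 1, the r of these 10 ran from 0.76 (Ctla2b) to 0.93 (Myct1), with Pde2a and Mmrn2 at 0.80. Only 4930523C07Rik was then higher, at 0.91. Myct1, Mmrn2, S1pr1 and Cd93 belong to a list of 30 further endothelial genes, of which 13 were among the 100 most alike. The median r of the 30 was 0.68, against 0.04 for all ranked genes.

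Counts in this and the following lists stand against all tested genes, of which 21.0% were called higher and 22.8% lower in lean tumors after ETS, 21.2% higher and 19.0% lower in obese tumors after ETS, and 13.5% higher and 12.9% lower in obese than in lean tumors pre-therapy. The list of 30 includes endothelial transcription factors, receptors and surface proteins, and all 30 were tested. In obese tumors after ETS, 18 rose and 2 fell (median log2 fold change 0.92), above and below the background. In lean tumors 1 rose, below the background, and 8 fell, near it (median −0.42). Plvap, the diaphragm protein of fenestrated vessels, rose in obese tumors (1.41, adjusted p = 0.000621). Its values there were 21.4, 25.4, 22.6 and 17 CPM pre-therapy and 80.2, 45.5, 31.4 and 72.0 CPM after ETS, without overlap. Cd34, a sialomucin of endothelium and of blood progenitors, fell in lean tumors (−0.93, adjusted p = 0.0379) and rose in obese ones (1.14, adjusted p = 0.0166). The largest called changes in lean tumors were the falls of Fli1 (−2.38), Calcrl (−1.52) and Cd93 (−1.11), and in obese tumors the rises of Mmrn2 (1.69), Clec14a (1.6) and Shank3 (1.48). Fli1 and Cd93 are also made by leukocytes. Chosen after their values were seen, the exceptions were Tspan7, which rose in lean tumors (0.58), and Ramp2 (−0.39) and Tal1 (−0.65), which fell in obese tumors. The difference between the hosts was called in 15 of the 30, all lower in lean minus obese (median −1.38; 10.1% of all tested genes), and led by Fli1 (−2.86), Clec14a (−2.77) and Shank3 (−2.55). Pre-therapy, 15 of the 30 were lower in obese tumors (median −0.79), above the background, with Icam2, an adhesion molecule for leukocytes, lowest at −2.31. After ETS, Calcrl (1.39), Shank3 (1.32) and Ptprb (0.80) were higher in obese tumors and none was lower. Of all tested genes, 3.28% were called higher and 2.30% lower in that comparison. Cldn5, the tight junction claudin of endothelium, was not called in any comparison (adjusted p from 0.0511 to 0.865).

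The ligands did not follow a single pattern. Of 12 vascular growth factors listed, 8 were tested, and Angpt2 rose in both hosts (0.78, adjusted p = 0.00813 in lean; 0.72, adjusted p = 0.0144 in obese). Angpt1 was 2.26, 3.44, 5.32 and 3.35 CPM in lean tumors pre-therapy and 0.606, 0.919, 0.304 and 0.228 CPM after ETS. In obese tumors it was 0.186, 0.319, 0.201 and 0.0706 CPM pre-therapy and 0.544, 1.03, 0.127 and 1.24 CPM after ETS. The lean pre-therapy tumors thus stood above the other 12, and the obese groups overlapped through ETS tumor 3. Angpt1 fell in lean tumors (−2.81 ± 0.58 SE, adjusted p = 0.00141), rose from its low level in obese tumors (1.91 ± 0.62 SE, adjusted p = 0.0231) and was lower in obese than in lean tumors pre-therapy (−4.21 ± 0.63 SE, adjusted p = 0.000218). In each obese tumor pre-therapy Angpt1 lay below Tek (0.512 to 2.23 CPM there), the least precise member. These Angpt1 changes, and the ratio that follows, therefore rest on few counts outside lean tumors pre-therapy. The log2 ratio of Angpt2 to Angpt1 was 3.61 ± 0.52 in lean tumors pre-therapy, 7.31 ± 1.02 in lean tumors after ETS and 7.46 ± 0.67 in obese tumors pre-therapy. Either of the latter groups lay above lean pre-therapy in all 4 tumors (exact p = 0.0286 each, the smallest possible, adjusted p = 0.152).

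Vegfa, the ligand of Kdr and Flt1, was not called after ETS in lean (0.37, adjusted p = 0.455) or obese tumors (−0.27, adjusted p = 0.613). Pre-therapy it was 114, 113, 144 and 156 CPM in lean tumors and 365, 273, 410 and 646 CPM in obese tumors. Every obese tumor was higher (1.68 ± 0.40 SE, adjusted p = 0.00571), the reverse of the difference in Kdr. Pgf, which binds Flt1, rose in obese tumors after ETS (1.47, adjusted p = 0.0183), from 36.8, 30.8, 28.3 and 54.8 CPM to 69.3, 41.7, 58.5 and 247 CPM. Tumor 4 held the most, and tumor 2 lay inside the pre-therapy range. Pgf was then higher in obese than in lean tumors (1.75, adjusted p = 0.0404).

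**Figure D4:**
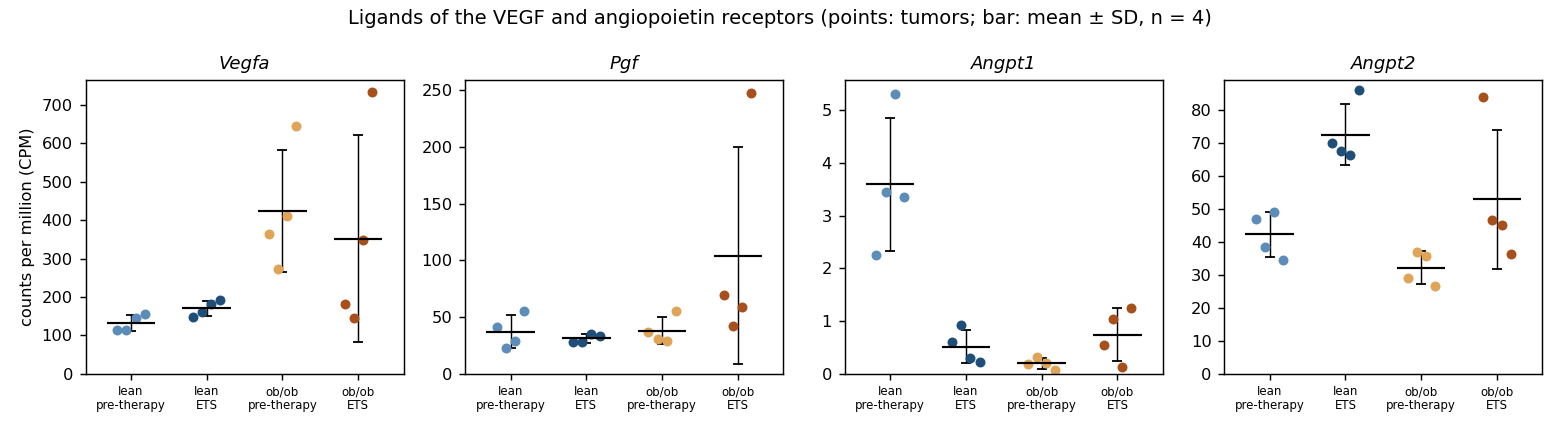
CPM of Vegfa, Pgf, Angpt1 and Angpt2 (y axes, linear from 0) in the 16 tumors, grouped on the x axis by host and treatment; points are tumors, and bars give the mean ± SD (n = 4). Angpt1 is above 2 CPM only in lean tumors pre-therapy, and Vegfa is higher in all obese than in all lean tumors pre-therapy.

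Of 11 VEGF and TGF-beta co-receptors and their targets, all tested, 6 rose in obese tumors, above the background, and none fell, while 2 rose and 2 fell in lean tumors, near it. Nrp1, the co-receptor of Kdr, fell in lean tumors (−1.23, adjusted p = 6.0e-05) and rose in obese tumors (0.43, adjusted p = 0.0454). Acvrl1 (ALK1), the receptor that works with Eng, rose in both (1.08 and 0.67). Aplnr had the largest called rise in obese tumors (1.80, adjusted p = 0.0189). The 16 genes of tip cells and Notch signaling, all tested, gave 5 rises in obese tumors and none lower, and 2 rises and 2 falls in lean tumors, below the background in either direction. Notch1 fell in lean (−1.03) and rose in obese tumors (0.99), with a called difference (−2.01, adjusted p = 0.00244), whereas the tip cell genes Dll4, Apln and Esm1 were not called in any comparison. Of the 10 leukocyte adhesion molecules of endothelium, 7 were tested (Sele was not), and 6 rose in obese tumors while 2 rose and 2 fell in lean tumors. Icam1 fell in lean tumors (−2.61, adjusted p = 0.000560) and rose in obese tumors (2.24, adjusted p = 0.00199), and Vcam1 rose in obese tumors (2.2, adjusted p = 0.0344). Icam1 and Vcam1 are also made by fibroblasts and leukocytes.

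Markers of macrophages and fibroblasts rose in obese tumors along with the vessel genes and fell in lean tumors, where 9 of the 10 vessel genes were not called. Of 12 macrophage and monocyte markers, all tested, 9 fell in lean tumors, 8 rose in obese tumors and 10 were lower in obese than in lean tumors pre-therapy. Their summed level was 459 to 1448 CPM in lean tumors pre-therapy, 52.2 to 435 after ETS, 47.5 to 270.2 in obese tumors pre-therapy and 367 to 1147 after ETS. All 8 fibroblast markers rose in obese tumors and 4 fell in lean ones, with sums of 528 to 2209, 95.4 to 602, 91.1 to 603 and 605 to 5687 CPM in the same order. Macrophages can also make Eng, Flt1 and Tek. No macrophage or fibroblast marker was at 0 in a whole group, and their part in the vessel results was not tested.

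The cells that wrap vessels, by 11 markers of pericytes and smooth muscle, all tested, gave 8 rises in obese tumors and none lower, and 2 rises and 3 falls in lean tumors, the latter near the background. Their sums were 230 to 275 CPM in lean tumors pre-therapy, 304 to 429 after ETS, 224 to 294 in obese tumors pre-therapy and 518 to 628 after ETS. Mcam, which endothelium and melanoma cells make too, gave 98.0 to 124 CPM of the lean sums pre-therapy and 198 to 242 CPM after ETS. Without it, a sum taken after its values were seen, the lean sums were 112 to 165 CPM pre-therapy and 106 to 187 CPM after ETS, which overlapped, and the obese sums were 97.2 to 108 and 150.2 to 265 CPM, which did not. Pdgfrb, the receptor through which endothelium recruits pericytes, fell in lean (−0.77) and rose in obese tumors (1.27), while Des, the muscle-type filament protein (1.98 and 1.88), and Mcam (0.98 and 1.26) rose in both. Des was 62.3 and 50.7 CPM in lean ETS tumors 1 and 2 and 66.1 CPM in obese ETS tumor 2, against 10.2 to 16.9 CPM in the other ETS tumors. Those tumors also had the highest summed skeletal muscle markers (359, 208 and 452 CPM). The part of muscle in Des, and in the sums that contain it, was not tested. Of 7 lymphatic markers, 4 were tested. Flt4 (0.80 and 1.26) and Reln (1.88 and 2.66) rose in both hosts, Pdpn fell in lean (−0.63) and rose in obese tumors (0.88), and Prox1, the defining factor, was not called.

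Platelets also hold Vwf and Pecam1. Of 10 platelet and megakaryocyte markers, 5 were tested, of which Pf4 rose in obese tumors after ETS (2.70, adjusted p = 0.00860) and 2 rose in lean tumors. The list's sum was 4.87 to 14.0 CPM in lean tumors pre-therapy, 4.06 to 9.15 after ETS, 6.72 to 13.5 in obese tumors pre-therapy and 7.60 to 94.4 after ETS. Pre-therapy, 4 of the 5 were higher in obese than in lean tumors. In lean tumors pre-therapy Gp1ba and Gp6 were at 0 counts in all 4, whereas Pf4 was 2.38 to 12.9 CPM, Itga2b was 0.604 to 1.51 CPM, and Gp1bb, Gp9 and Ppbp had counts in all 4. The part of platelets in the Vwf and Pecam1 values was not tested.

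Melanocyte markers, the mark of the tumor cells, rose in 2 of 8 genes in lean and 3 of 8 in obese tumors after ETS, and 4 of 8 were lower in obese tumors pre-therapy. The lean share was near the background. Their sums were 19022 to 24147, 24229 to 27992, 11621 to 15867 and 11264 to 26648 CPM in the order lean pre-therapy, lean ETS, obese pre-therapy and obese ETS. All 8 proliferation genes fell in both hosts. No T cell or adipocyte marker and 2 of 8 skeletal muscle markers were tested, the latter without a call. The T cell sum was 21.2 to 40.5 CPM in lean tumors pre-therapy and at most 1.80 CPM in the other 12. The adipocyte sum was at most 2.58 CPM in each lean tumor. In obese tumors it was 0.186, 37.5, 4.44 and 1.04 CPM pre-therapy and 40.4, 31.4, 38.0 and 0.420 CPM after ETS. The muscle sum was 189 and 48.7 CPM in lean pre-therapy tumors 2 and 4, and 359 and 208 CPM in lean ETS tumors 1 and 2. It was 452 CPM in obese ETS tumor 2 and at most 4.42 CPM in each of the rest. The part of fat or muscle in the vessel gene values was not tested.

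**Figure D5:**
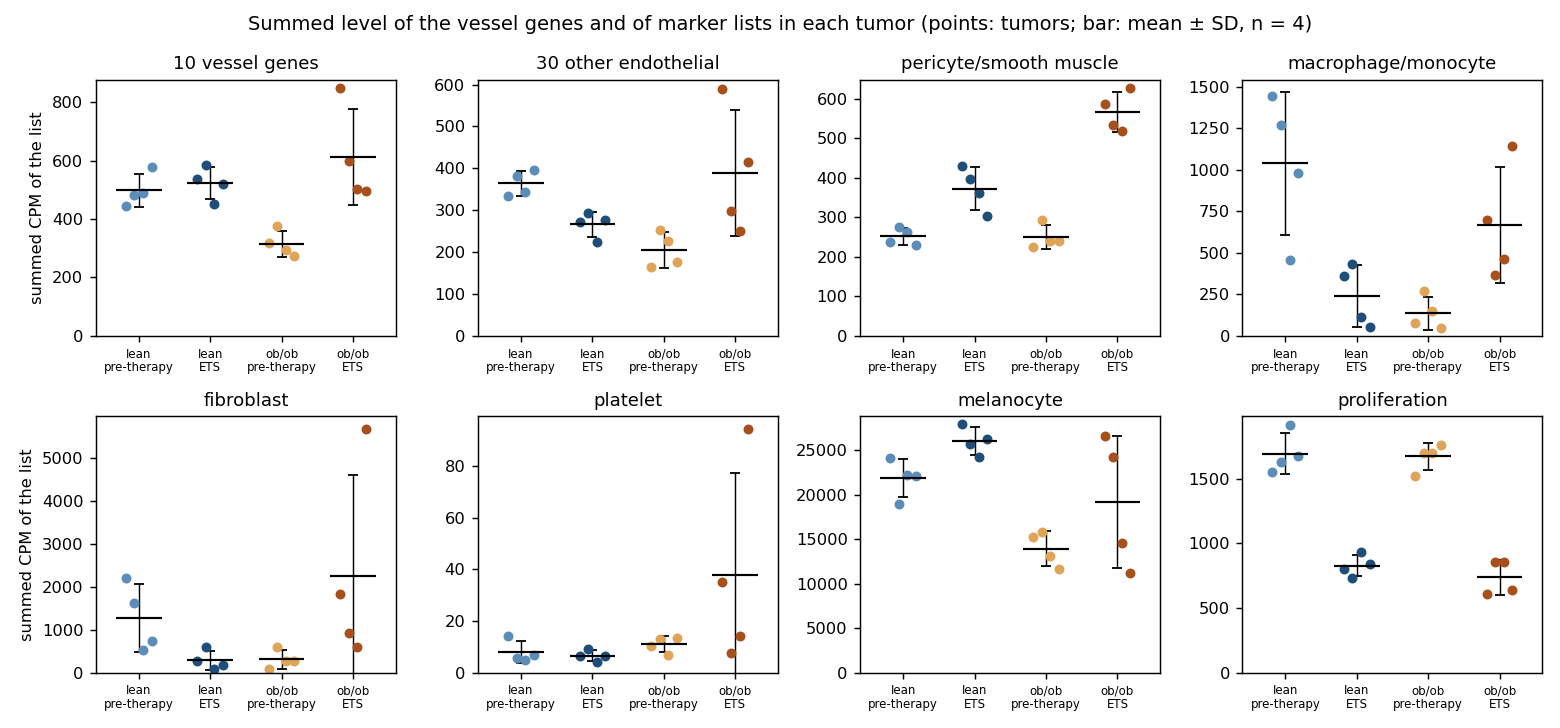
Summed CPM of the 10 vessel genes and of 7 other lists (y axes, linear from 0) in the 16 tumors, grouped on the x axis by host and treatment; points are tumors, and bars give the mean ± SD (n = 4; for the fibroblast and platelet lists in obese ETS tumors the bar is cut at 0 where it would pass below). Eng is the largest part of the vessel gene sums. The macrophage and fibroblast sums are low in the 2 middle groups, where the 30 other endothelial genes are also lower. The pericyte and smooth muscle sums are higher after ETS in both hosts, but without Mcam the lean groups overlap.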

How the data were processed

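RNA-seq had been done on 16 whole B16F10 tumors in 4 groups of 4. Per the labels, the authors trimmed reads with Trimmomatic, aligned them to mm10 with HISAT2 2.1.0 and quantified genes with StringTie 2.1.3b. The deposited table holds whole-number counts per gene, which were not normalized and were tested here, and TPM and FPKM values per tumor made by the authors in the same step. TPM gave the order of genes and an alternative, and FPKM was not used. Whether strand was used in counting is not stated in the sources used here.

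After the study's methods, 29568 of the 45777 genes were left out because at least 1 tumor had no count. The other 16209 were scaled by TMM and tested with edgeR 4.0.16 (quasi-likelihood test, R 4.3.3) on all 16 libraries with a mean per group. P-values were adjusted by Benjamini-Hochberg over the 16209 genes. Standard errors and 95% intervals came from the fold change and its F statistic. Log2 CPM used a prior count of 2 and gene ratios a prior count of 0.5. Likeness was Pearson's r between deviations from group means. The test was checked on simulated data.

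The members, the 16 other gene lists and the tests were chosen with earlier results of these data known. Members were all named; from other lists, a few preset genes and at most 3 called genes of largest change per list and comparison were named, other than those said to be chosen later. Alternatives were DESeq2's size factors, no filter, filterByExpr, edgeR's exact test on counts plus 1 (closest to the study's test), DESeq2 1.42.0, limma-voom with sample weights and limma on log2(TPM + 1) or log2(TPM + 0.1) (limma 3.58.1), only the groups compared, a replicate block and leaving out each tumor. Log2 CPM of tumors of a group correlated at 0.972 to 0.996, and at least 20845 genes had different counts in any pair. Depth was 47199949 to 61655287 counts per tumor, so that only Tek had counts under 100.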

Additional observations from a re-analysis of the deposited data

Results flagged for a closer look

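In 3 of the 40 sets of 4 tumors (10 genes in 4 groups), a tumor lay far from the others by Dixon's criterion, which chance alone meets in about 1 of 20 sets. Cdh5 was 88.1 CPM in obese ETS tumor 1, against at most 34.2 CPM in the other obese ETS tumors. Tek was 2.23 CPM in obese pre-therapy tumor 2, against at most 0.703 CPM in the others. Tie1 was 7.61 CPM in lean ETS tumor 3, against at least 11.9 CPM in the others.

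The change after ETS differed between lean and obese tumors by the test of the difference in 7 genes, given here as lean minus obese on the log2 scale. These were Kdr (−1.97), Emcn (−1.55), Pecam1 (−1.53), Tie1 (−1.33), Esam (−1.29), Flt1 (−0.99) and Tek (−2.91).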

How the results depend on the processing

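The count of the 10 genes called in obese tumors after ETS stayed within 1.5 times of 9 under every setting tried (7 to 10 when a tumor was left out). In lean tumors, the count of 1 became 3 with the exact test (22.9% of all tested genes called lower) and 3 with DESeq2 (23.4%). It became 4 with limma-voom (27.8%), 3 with only the groups compared (22.9%) and 5 with either TPM scale. On TPM, 44.9% (1 TPM added) and 45.0% (0.1 TPM added) of all tested genes were called lower, so 5 of 10 was near the background. The lean count was 2 with the replicate block (25.0%), where Tek joined Kdr, and 1 to 3 when a tumor was left out. All of these calls were lower after ETS. The members' lean median was −0.62 with 0.1 TPM added, where the median of all genes was −0.36. For obese against lean tumors pre-therapy, the count of 4 became 7 with DESeq2 (15.2% of all tested genes called lower) and was 3 to 6 without a tumor. After ETS, the count of 1 became 2 with the exact test (6.04% of all tested genes called higher) and 5 with DESeq2 (6.94%). It became 0 without a filter (0.887%), 0 with only the groups compared (0.308%) and 0 to 3 without a tumor. The cause of these changes was not tested, other than that fewer samples entered with only the groups compared.

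The difference between the hosts could not be had from the exact test or from only the groups compared. Its count of 7 was 3 to 9 without a tumor. It became 5 without a filter (6.44% of all tested genes called lower). It became 9 with DESeq2 (11.9%), limma-voom (11.8%), 1 TPM added (13.8%) or 0.1 TPM added (13.7%). Medians over the 10 genes without a tumor were −0.34 to −0.13 (ETS in lean), 0.79 to 1.30 (ETS in obese), −1.49 to −0.94 (difference), −0.84 to −0.66 (hosts pre-therapy) and 0.40 to 0.84 (hosts after ETS).

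The 30 other endothelial genes were run under the same settings, an addition made after seeing the data. Their 9 calls in lean tumors (6 to 12 without a tumor) became 16 with limma-voom, 15 of them lower, where 27.8% of all tested genes were called lower. On TPM they became 16 with 1 TPM and 15 with 0.1 TPM added, all lower. There 44.9% and 45.0% of all tested genes were called lower, as that scale moved all genes. Their 20 calls in obese tumors became 12 with only the groups compared, all higher (17.6% of all tested genes), and were 13 to 19 without a tumor. The 15 of the difference became 23 with DESeq2, 22 of them lower (11.9% of all tested genes), and were 12 to 20 without a tumor. The 15 pre-therapy were 8 to 17 without a tumor. The 3 after ETS became 8 with the exact test, 7 of them higher (6.04% of all tested genes), and 11 with DESeq2, 10 of them higher (6.94%). They became 1 without a filter, which was higher (0.887%), and 0 with only the groups compared (0 to 7 without a tumor).

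Uncalled values that changed sign were Vwf and Eng in lean tumors (−0.13 and −0.13 with 1 TPM added, −0.14 and −0.13 with 0.1 TPM), Eng between hosts after ETS (0.064 with limma-voom, 0.031 with either TPM scale, 0.045 without ob_ob_ETS 4, down to −0.23 without ob_ob_ETS 1) and Tie1 in lean tumors (0.0078 without B6_ETS 3, down to −0.25 without B6_ctrl 1). So did the log2 ratio of Vwf to Cdh5 in obese tumors (0.082 without ob_ob_ETS 1, down to −0.48 without another tumor) and between hosts after ETS (−0.031 without B6_ETS 1, −0.086 without ob_ob_ETS 2, up to 0.48 without ob_ob_ETS 1).

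The labels do not say whether same-numbered tumors of different groups share more than a number. The correlation of their deviations from the group means exceeded 0.1 in 11 of 24 pairs (−0.11 to 0.45). Of 16 tumors, 5 were most alike a tumor with their own number. These values cannot tell whether the numbers stand for something shared. The replicate block changed no other count by over 1.5 times, although in the difference between hosts Tie1 was lost (adjusted p = 0.0751) and Eng gained (0.0335). Depth limits Tek most, with as few as 11 counts.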

Other observations

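Hemoglobin genes, which tell of red blood cells in the tumor, were not among the tested genes because some tumors had no count, and their values carry no test here. Hba-a1, an alpha chain, was 89.7, 54.3, 129.7 and 30.6 CPM in lean tumors pre-therapy and at most 0.070 CPM in each lean tumor after ETS. In obese tumors Hba-a1 was 261, 242, 380.4 and 3455 CPM pre-therapy and 0.272, 0.721, 11.7 and 5.25 CPM after ETS. Hbb-bs, a beta chain, was 138, 63.8, 175 and 36.0 CPM in lean tumors pre-therapy and 316, 273, 506 and 4559 CPM in obese ones. For both genes all 4 pre-therapy tumors were above all 4 ETS tumors in either host, and the obese pre-therapy tumors were above the lean ones. The vessel genes and these genes differed in order among the groups, since obese tumors pre-therapy had the highest Hba-a1 and Hbb-bs values and the lowest sums of the 10 vessel genes (273 to 376 CPM). Eng was the largest part of these sums, with a mean of 168 of 316 CPM in obese tumors pre-therapy. Both genes were chosen after their values were seen.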
